A study of Mus musculus with 27 samples.

Results

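Hematopoietic progenitor cells (HPC) from adult B6 mice were compared for a pair of histone marks, acetylation of lysine 27 of histone H3 (H3K27ac) and monomethylation of lysine 4 (H3K4me1). Every peak of both lists was classed by whether it overlapped a peak of the other mark by at least 1 bp. The classes were peaks with both marks, H3K4me1 alone and H3K27ac alone, and no measure of strength was used to form them. Together the lists held 189610 of the 901169 peaks of the 8 lists of the study, 63108 for H3K27ac and 126502 for H3K4me1. Each list was the authors' pool of 3 libraries from sorted HPC at 8 weeks of age. The study also held fetal cells (E16.5) and hematopoietic stem cells (HSC). All experiments used the B6 background, and no allele or agent was given for any group. The labels gave neither the surface markers of the sort, nor the sex of the animals, nor how many animals entered a library, and HPC is a mixture of progenitor types. The assay was ChIPmentation, in which the Tn5 transposase adds sequencing adapters to chromatin while it is held by the antibody. Since every group is a single pooled list, no spread between replicates could be measured and no test across samples was possible. The 95% intervals below (Wilson for a share, Newcombe for a difference) cover counting error only, and neighbouring peaks are not independent.

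H3K4me1 is laid down by the KMT2C and KMT2D methyltransferases at enhancers, whether active or held in readiness, and on the flanks of promoters. H3K27ac is written by CREBBP and EP300 at enhancers and promoters that are in use, and it excludes methylation of the same lysine by the Polycomb enzyme EZH2. Distal sites with both marks are commonly read as active enhancers and distal sites with H3K4me1 alone as primed or poised ones, a reading that the peak lists alone do not test. Progenitor cells of the bone marrow are known for enhancers that are marked before the lineage genes they serve are switched on.

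The label of the cells was checked against 6 genes that define early progenitors. Kit and Flt3 (cytokine receptors), Cd34, Cd48 and Ly6a (surface markers) and Myb (a transcription factor) all had peaks of both marks within 1 kb of a gene end, 6 of 6 for each mark. Among all 21887 protein-coding genes, 55.0% had H3K27ac and 67.3% had H3K4me1 there. Of 10 markers of each other cell type, 1 had H3K27ac there for stroma, 2 for macrophages, 3 for hepatocytes, 5 for T and NK cells, 7 for B cells and 7 for endothelium. H3K4me1 lay there at 8, 6, 3, 5, 9 and 10 markers in the same order. For stroma, B cells and endothelium that was above the 67.3% of all coding genes, so H3K4me1 did not set the progenitor markers apart from these. Col1a1 (collagen) and Adgre1 (the macrophage antigen F4/80) had no H3K27ac there. When each peak was instead given to the nearest coding gene within 100 kb, H3K27ac with H3K4me1 reached fold 26.9 at Klrb1c (an NK cell receptor), 15.3 at Pecam1 (an endothelial adhesion molecule) and 3.62 at Adgre1, and Col1a1 still had no H3K27ac peak. The part of such cells in the HPC libraries was not tested.

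The 250 bases before the start of 8 genes show the range of promoters behind the classes, taken from RefSeq on GRCm38.p6 and written 5′ to 3′ on the strand of the gene with CG dinucleotides in capitals. Csf2ra (a cytokine receptor subunit, chr19:61228419-61228668, minus strand) and Sf3b1 (a splicing factor, chr1:55027479-55027728, minus) stand for starts with both marks within 1 kb. Ubb (ubiquitin, chr11:62550921-62551170, plus) and Meis1 (a stem cell homeobox factor, chr11:19018970-19019219, minus) stand for starts with H3K27ac and no H3K4me1 within 1 kb. A start is classed here by what lies within 1 kb of its base, so the H3K27ac peak over it can still reach H3K4me1 farther off. Gfi1b (a repressor of the erythroid and platelet lineages, chr2:28621983-28622232, minus), Irx3 (chr8:91801655-91801904, minus) and Lhx2 (chr2:38351058-38351307, plus), the last pair being homeobox regulators of other tissues, stand for starts with H3K4me1 alone. Alb (serum albumin, chr5:90460620-90460869, plus) stands for starts with neither mark.
Csf2ra: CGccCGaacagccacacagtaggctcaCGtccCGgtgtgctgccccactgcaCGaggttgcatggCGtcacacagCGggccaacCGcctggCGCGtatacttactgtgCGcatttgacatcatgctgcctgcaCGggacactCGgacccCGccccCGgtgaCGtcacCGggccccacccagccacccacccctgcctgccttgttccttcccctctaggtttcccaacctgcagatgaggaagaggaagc
Sf3b1: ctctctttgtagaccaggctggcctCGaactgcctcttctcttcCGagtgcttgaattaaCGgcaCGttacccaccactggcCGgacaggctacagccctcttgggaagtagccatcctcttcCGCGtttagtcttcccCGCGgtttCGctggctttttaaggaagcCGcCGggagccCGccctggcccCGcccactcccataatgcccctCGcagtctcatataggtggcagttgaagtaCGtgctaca
Ubb: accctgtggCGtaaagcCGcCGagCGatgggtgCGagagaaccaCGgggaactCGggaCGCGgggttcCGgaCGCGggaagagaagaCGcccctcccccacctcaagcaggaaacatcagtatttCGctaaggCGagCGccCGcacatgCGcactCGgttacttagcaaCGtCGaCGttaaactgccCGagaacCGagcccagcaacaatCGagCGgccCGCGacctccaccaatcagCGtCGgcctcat
Meis1: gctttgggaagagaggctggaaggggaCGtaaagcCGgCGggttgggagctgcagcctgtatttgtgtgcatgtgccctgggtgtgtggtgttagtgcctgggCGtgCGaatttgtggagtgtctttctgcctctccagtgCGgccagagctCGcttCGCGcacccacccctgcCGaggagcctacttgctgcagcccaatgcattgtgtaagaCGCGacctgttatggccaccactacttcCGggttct
Gfi1b: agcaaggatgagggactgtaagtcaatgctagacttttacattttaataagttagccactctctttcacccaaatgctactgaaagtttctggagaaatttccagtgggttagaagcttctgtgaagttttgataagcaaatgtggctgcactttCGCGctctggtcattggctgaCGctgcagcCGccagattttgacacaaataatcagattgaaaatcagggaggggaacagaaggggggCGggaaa
Irx3: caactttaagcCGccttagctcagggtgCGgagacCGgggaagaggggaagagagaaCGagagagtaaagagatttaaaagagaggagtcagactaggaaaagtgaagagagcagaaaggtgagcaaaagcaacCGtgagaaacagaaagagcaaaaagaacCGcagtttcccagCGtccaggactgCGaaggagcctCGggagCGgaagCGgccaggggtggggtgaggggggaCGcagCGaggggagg
Lhx2: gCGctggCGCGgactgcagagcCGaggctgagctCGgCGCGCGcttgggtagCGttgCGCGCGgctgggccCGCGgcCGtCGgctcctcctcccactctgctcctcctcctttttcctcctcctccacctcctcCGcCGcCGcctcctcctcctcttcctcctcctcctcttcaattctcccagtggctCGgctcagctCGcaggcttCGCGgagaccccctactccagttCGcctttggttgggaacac
Alb: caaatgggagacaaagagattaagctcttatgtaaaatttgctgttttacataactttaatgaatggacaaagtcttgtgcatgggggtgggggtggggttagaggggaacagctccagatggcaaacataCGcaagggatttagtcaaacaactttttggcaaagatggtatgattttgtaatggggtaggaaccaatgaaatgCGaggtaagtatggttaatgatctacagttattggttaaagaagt
The printed stretches of Csf2ra, Sf3b1, Ubb and Meis1 held 17, 16, 30 and 13 CG dinucleotides. Those of Gfi1b, Irx3 and Lhx2 held 5, 13 and 24, and that of Alb held 2. Irx3 thus held as many CG as Meis1, the lowest of the printed starts under H3K27ac, and Lhx2 held more. No H3K27ac peak lay within 1 kb of the starts of Irx3 and Lhx2. These are single examples, and the medians over all starts of each class are given below.

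Most H3K27ac peaks lay on H3K4me1, whereas most H3K4me1 peaks of the full list had no H3K27ac. Of the H3K27ac peaks, 54832 (86.9%, 86.6% to 87.1%) overlapped H3K4me1 and 8276 (13.1%, 12.9% to 13.4%) did not. Of the H3K4me1 peaks, 48144 (38.1%, 37.8% to 38.3%) overlapped H3K27ac and 78358 (61.9%, 61.7% to 62.2%) did not. That second share depended on how many weaker H3K4me1 peaks were counted. Among the strongest 63108 H3K4me1 peaks, the length of the H3K27ac list, 61.2% had H3K27ac. Among the strongest 20000 H3K4me1 peaks 86.0% had it. Both subsets were set against the full H3K27ac list. H3K27ac covered 71.8 Mb and H3K4me1 176 Mb. The 55.5 Mb under both marks made up 77.3% of the H3K27ac bases and 31.6% of the H3K4me1 bases. Once touching peaks were joined, 124530 regions remained, of which 30.4% held both marks, 62.9% H3K4me1 alone and 6.65% H3K27ac alone. The regions with both marks covered 124 Mb, against 64.6 Mb for H3K4me1 alone and 3.51 Mb for H3K27ac alone. Of the 37896 regions with both marks, 20866 joined a single peak of each mark, 7587 held several H3K27ac peaks with a single H3K4me1 peak, 7060 held several H3K4me1 peaks with a single H3K27ac peak, and 2383 held several of each.

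Peaks with both marks were wider and stronger than peaks with a mark alone. Median width was 828 bp for H3K27ac peaks with H3K4me1 (quartiles 448 and 1688 bp) and 341 bp for H3K27ac alone (265 and 480 bp). For H3K4me1 it was 1683 bp with H3K27ac (931 and 2829 bp) and 591 bp alone (360 and 1063 bp). A wide peak has more room to touch a peak of the other list, so width is not independent of the overlap rule. The ratio of the medians was 2.43 for H3K27ac and 2.85 for H3K4me1. Averaged within deciles of −log10 p it was 1.54 and 1.15. For H3K4me1 it was 1.57 at equal list lengths and 1.42 among the strongest 20000 peaks, and it fell below 1 for H3K27ac, to 0.834, when the summit of the peak had to lie inside H3K4me1. The authors' fold over background, a value of each peak used here only within its own list, had a median of 3.41 against 2.56 in the H3K27ac list and of 4.53 against 2.82 in the H3K4me1 list.

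**Figure D1:**
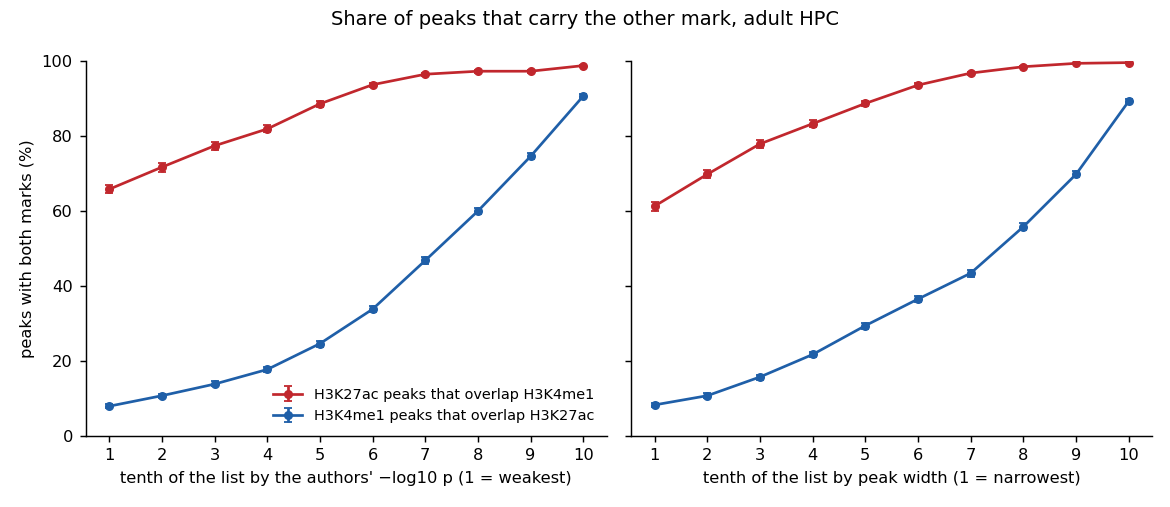
Percentage of peaks that overlap the other mark (y axis) by decile of each list, ranked by the authors' −log10 p on the left and by width on the right, with 95% Wilson intervals. H3K27ac peaks (red) climb from 65.8% to 98.8% over the deciles of −log10 p, and H3K4me1 peaks (blue) from 7.90% to 90.7%.

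The share with both marks climbed in both lists with peak strength, as the plot by deciles (10 groups of equal size) shows. In the weakest decile of the H3K4me1 list by −log10 p, 7.90% of peaks had H3K27ac, against 24.6% in the fifth decile and 90.7% in the strongest. In the H3K27ac list the share with H3K4me1 went from 65.8% to 98.8%. H3K4me1 alone thus made up most of the weaker peaks of its list and few of the strongest, and H3K27ac alone was rare among strong peaks. Many of the peaks alone were close to the other mark: 35.7% of the H3K27ac alone peaks lay within 1 kb of an H3K4me1 peak and 68.3% within 5 kb, and 15.3% and 47.0% of the H3K4me1 alone peaks lay that near to H3K27ac. A site without a called peak may still carry the mark, and the read depth of the libraries is unknown.

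Distance to gene starts separated the classes, and it did so in different ways for each mark. Starts came from a RefSeq promoter table with 21263 starts of 17492 coding genes, so only peaks whose nearest coding gene has a listed start were used (79.8% of H3K27ac and 79.0% of H3K4me1 peaks). Of H3K4me1 peaks whose edge lay 1 to 1000 bp from a start, 82.0% (81.3% to 82.6%) overlapped H3K27ac. Of those directly over a start only 52.2% (50.6% to 53.9%) did, and beyond 1 kb the share was between 27.4% and 32.5% at every distance. H3K27ac peaks over a start overlapped H3K4me1 in 96.3% (95.9% to 96.7%), and those over 100 kb from a start in 81.6% (80.6% to 82.5%). The class with both marks was spread over all distances: 17.4% of its H3K4me1 peaks lay 5 to 20 kb from a start, 27.4% lay 20 to 100 kb away and 10.7% farther.

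**Figure D2:**
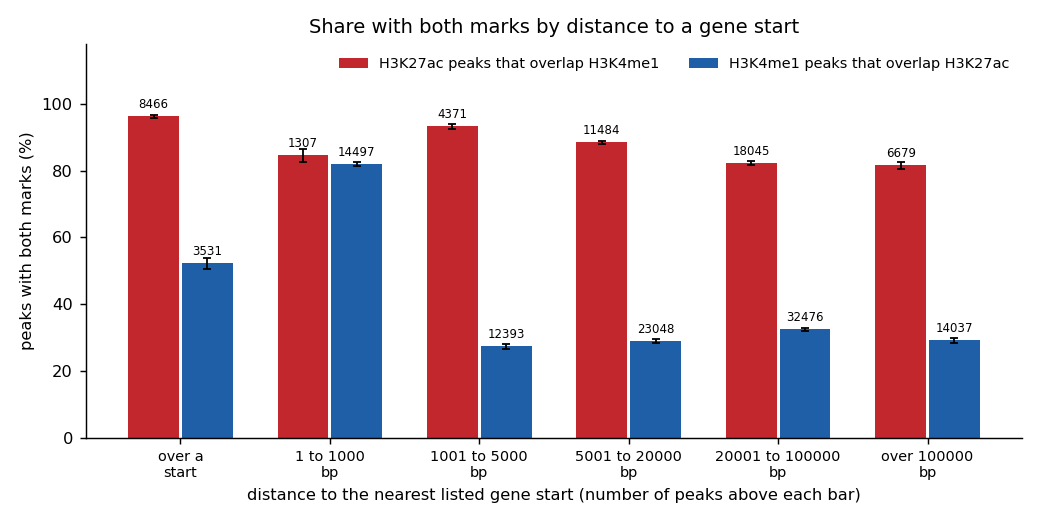
Percentage of peaks with both marks (y axis, 95% Wilson intervals) by distance to the nearest listed gene start, for H3K27ac peaks (red) and H3K4me1 peaks (blue), with the number of peaks above each bar. H3K4me1 peaks stand at 82.0% just beside a start and at 52.2% over it, while H3K27ac peaks stay between 81.6% and 96.3%.

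Within equal strength the same nearness to starts held for H3K4me1 in every decile. H3K4me1 peaks within 1 kb of a start had H3K27ac more often than those over 5 kb away by 32.5 points (28.4 to 36.6) in the weakest decile, 50.7 points (48.2 to 53.0) in the fifth and 5.23 points (4.08 to 6.30) in the strongest. For H3K27ac peaks the sign depended on strength: 81.5% (74.5% to 86.8%) had H3K4me1 near starts and 63.4% (62.0% to 64.8%) at distal sites in the weakest decile, but 83.0% (78.7% to 86.6%) and 94.0% (93.2% to 94.7%) in the sixth.

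The marks were arranged around starts as a peak of H3K27ac between shoulders of H3K4me1. Of the 21263 starts, 10818 (50.9%, 50.2% to 51.5%) lay inside an H3K27ac peak. Only 1565 of those (14.5%, 13.8% to 15.1%) also lay inside an H3K4me1 peak, while 8779 (81.2%, 80.4% to 81.9%) had H3K4me1 within 1 kb but not over the start base, and 474 (4.38%, 4.01% to 4.78%) had none within 1 kb. On autosomes H3K4me1 covered 14.8% of the start bases under H3K27ac, 58.6% of positions 1000 bp upstream and 78.9% of positions 1000 bp into the gene. Distal sites were centred on the H3K27ac summit instead of a start base, and around that anchor no such valley was seen. At summits over 5 kb from a start, H3K4me1 covered 79.6% of the summit bases and 58.4% and 58.8% of positions 1000 bp to either side. No profile was centred on the summits of H3K27ac peaks over starts, so the anchors differ between these values. The distance between summits was taken only for H3K27ac peaks that overlapped exactly 1 H3K4me1 peak. Its median was 848 bp for 2320 such peaks over starts (quartiles 544 and 1285 bp). At distal sites it was 511 bp for 28713 such peaks (188 and 1174 bp). Over starts 8156 H3K27ac peaks overlapped H3K4me1, so most of them, with several H3K4me1 peaks each, were left out.

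**Figure D3:**
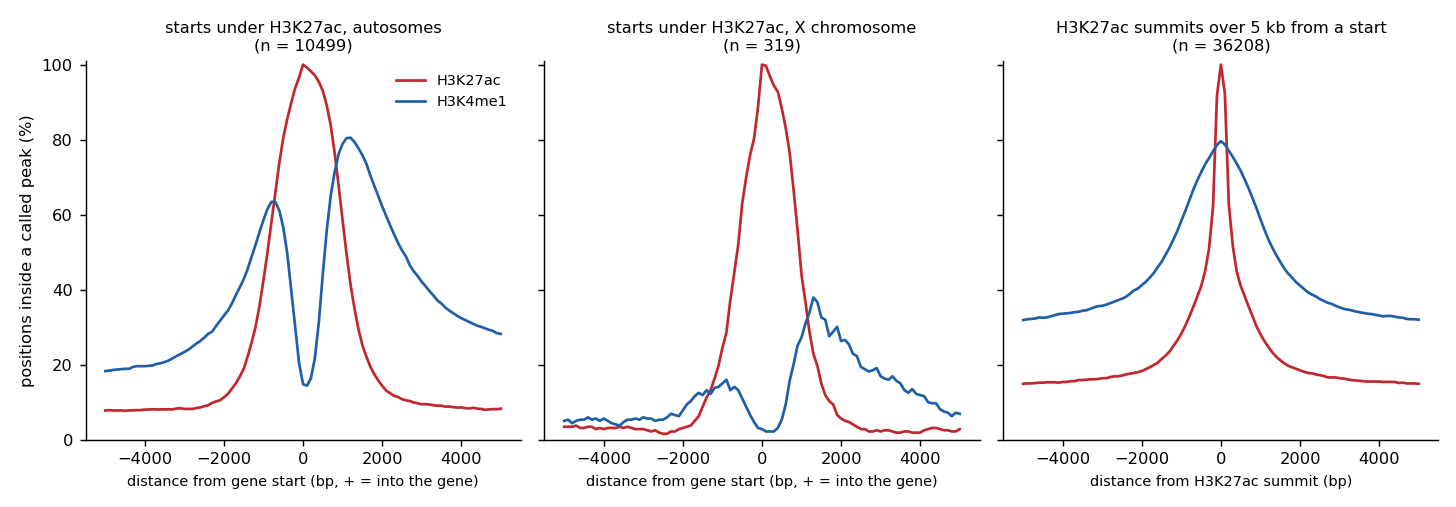
Percentage of positions inside a called peak (y axis) of H3K27ac (red) or H3K4me1 (blue) by distance in bp from gene starts that lie under H3K27ac on autosomes (left), such starts on the X chromosome (middle) and H3K27ac summits over 5 kb from a start (right). H3K4me1 dips to 14.8% at autosomal starts, to 2.82% at X starts, and has no dip at distal summits.

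How H3K27ac alone related to promoters depended on the overlap rule. With 1 bp of overlap as the rule, 7.80% of H3K27ac alone peaks (7.18% to 8.47%) lay within 1 kb of a start against 21.1% of those with H3K4me1 (20.8% to 21.5%), a difference of −13.3 points (−14.1 to −12.6). When the summit of the H3K27ac peak itself had to lie inside H3K4me1, the difference turned to 40.4 points (39.6 to 41.2), and among the strongest 20000 H3K27ac peaks it was 14.8 points (9.74 to 19.6). Of the peaks over a start in that subset, 112 of 216 on the X chromosome and 7342 of 7440 on autosomes overlapped H3K4me1. The 14.8 points were not recomputed without the X chromosome. H3K4me1 peaks with H3K27ac lay within 1 kb of a start in 35.7% of cases against 6.99% for H3K4me1 alone, and that difference of 28.7 points (28.2 to 29.2) kept its sign under every alternative that was run but fell to 10.6 points with at least 50% of the narrower peak covered, 18.9 with the summit rule and 13.1 among the strongest 20000 peaks.

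Base composition followed the classes of starts. Of the 17492 coding genes with listed starts, 53.2% had a start with both marks within 1 kb, 2.42% H3K27ac alone, 13.2% H3K4me1 alone and 31.3% neither. In the 300 bases from 250 before to 50 after each start, the median ratio of observed to expected CG was 0.772 for both marks (quartiles 0.573 and 0.918), 0.745 for H3K27ac alone (0.494 and 0.900), 0.526 for H3K4me1 alone (0.278 and 0.747) and 0.181 for neither (0.0887 and 0.316). The order of the first pair turned without the X chromosome, which held 190 of the 582 starts with H3K27ac alone: on autosomes the median was 0.791 for H3K27ac alone and 0.773 for both marks. Starts under H3K27ac that carried H3K4me1 over the start base itself were poorer in CG, with a median ratio of 0.384, than those without it there, with 0.821.

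Of 7 short motifs searched in the same windows on both strands, some differed in frequency between the classes, and none of the motifs named contains another. The ETS site CCGGAAG occurred in 19.1% of starts with both marks (18.4% to 19.9%), 12.5% with H3K27ac alone (10.1% to 15.5%), 3.28% with H3K4me1 alone (2.69% to 3.98%) and 2.30% with neither, against 11.6% of all starts. The SP/KLF box GGGCGG occurred in 64.3%, 64.4%, 51.2% and 11.5% in the same order, against 46.2% of all. Starts with H3K4me1 alone thus shared the GC-rich SP/KLF letters with starts under H3K27ac but held the ETS letters less often than the average start. The TATA box TATAAA went the other way, with 6.38%, 7.22%, 11.0% and 24.4%, against 12.6% of all. The GATA site AGATAA was likewise most frequent at starts with neither mark, with 5.93%, 9.11%, 8.07% and 16.8%, against 9.65% of all. The NRF1 letters GCATGCG occurred in 6.63% of starts with both marks, 4.81% with H3K27ac alone and 2.63% with H3K4me1 alone. The CCAAT box CCAAT varied little, between 33.1% and 41.3% with 38.2% of all, and the YY1 site AAGATGG occurred in 7.17%, 6.36%, 3.75% and 5.77% in the order above. A match is a description of these letters and not a bound site. The classes also differed in base composition, with a median GC of 61.3% for both marks and 46.3% for neither. How far the motif shares follow from composition alone was not tested.

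On the X chromosome, H3K27ac peaks over starts overlapped H3K4me1 less often than on autosomes. Of the 262 H3K27ac peaks over an X start, 124 (47.3%, 41.4% to 53.4%) overlapped H3K4me1, against 8032 of 8200 on autosomes (98.0%, 97.6% to 98.2%), and no autosome with listed starts was below 95.3%. Distal H3K27ac peaks of the X overlapped H3K4me1 in 69.3% (63.7% to 74.3%) against 84.2% (83.9% to 84.6%). Of 960 X starts, 18.8% had both marks within 1 kb, 19.8% H3K27ac alone and 5.52% H3K4me1 alone. The same 262 peaks overlapped H3K4me1 of adult HSC in 42.4%, of fetal HPC in 43.1% and of fetal HSC in 39.3%, against 97.4%, 92.6% and 91.1% on autosomes. They overlapped fetal HPC H3K27ac in 83.6%, close to the 86.5% of autosomes.

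When H3K4me1 within 1 kb of the H3K27ac peak was counted too, the difference between X and autosomes was −24.6 points, against −50.6 with overlap. Over all peaks of the X the median fold of H3K4me1 was 2.72, against 3.27 on autosomes, and that of H3K27ac 4.22 against 3.19. At starts the median fold of H3K27ac was 8.05 on the X and 11.4 on autosomes. Among starts whose H3K27ac peak was in the strongest 20000, the share with H3K4me1 was 51.9% (45.2% to 58.4%) on the X and 98.7% on autosomes. The share of peaks on the X was 1.57% for H3K4me1 and 1.14% for H3K27ac. It was 12.4% in the adult list of a second K27 set, whose titles say H3K27me3 and whose mark field says H3K27ac, and 1.37% in the fetal list of that set. The part of strength, mappability or the sex of the animals in these values was not tested. X-linked genes were among the nearest to the widest H3K27ac alone peaks: Huwe1 (a ubiquitin ligase, chrX:151800531-151804710, fold 20.0), Ogt (the enzyme that adds GlcNAc to proteins, chrX:101638859-101642509, fold 16.6), Ddx3x (an RNA helicase, chrX:13279792-13283001, fold 18.8) and Zfx (a factor of stem cell self-renewal, fold 23.6). The nearest H3K4me1 peak lay 900 bp from the Huwe1 peak, 768 bp from Ogt, 77 bp from Ddx3x and 124 bp from Zfx.

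Among autosomal genes, the widest H3K27ac alone peak covered the start of Myc, the growth regulator, with 4722 bp at chr15:61983646-61988367 and fold 11.8. Its next H3K4me1 peak began 243 bp away on the side of the gene, and none lay within 274451 bp on the other. Mycn, its paralog used by stem cells, had the same arrangement, with 3867 bp at chr12:12938878-12942744, fold 8.58 and H3K4me1 604 bp away. Crlf2 (a receptor subunit for the cytokine TSLP, chr5:109555450-109559803) had 4354 bp with fold 37.2, and its next H3K4me1 peak was 2045 bp off. Zfp36l2, an mRNA decay factor that progenitors need, had 2797 bp with fold 31.8 at chr17:84184627-84187423. Its next H3K4me1 peaks lay 2981 and 1239 bp off. This peak sat between H3K27ac peaks with H3K4me1, at chr17:84175599-84184557 (fold 27.6) and chr17:84187487-84189949 (fold 17.8), so it was part of a longer acetylated stretch. Zfp36l2 was also nearest to the widest H3K27ac peak with H3K4me1, 33462 bp at chr17:84134804-84168265. The strongest H3K27ac alone peak by −log10 p lay at chr8:19784511-19785444 near the predicted gene 4930467E23Rik, and the next at chr9:41206982-41208338, 45290 bp from Ubash3b, a phosphatase of blood cells. Whether reads there come from repeated sequence was not tested.

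Among peaks with both marks, the strongest H3K27ac peaks by −log10 p covered Hjurp (a chaperone of centromeric histone, chr1:88275894-88278451, fold 24.9) and Clk1 (a kinase of splicing factors, chr1:58421845-58424658, fold 61.4). The strongest H3K4me1 peaks with H3K27ac lay in Mroh2a (chr1:88257685-88265292, fold 7.09) and, close by, in Hjurp (fold 6.91). The second widest H3K27ac peak with H3K4me1, of 24047 bp and fold 25.4, lay 122402 bp from Haao (an enzyme of tryptophan breakdown), its nearest coding gene. The widest H3K4me1 peaks with H3K27ac lay in Zmiz1 (a transcriptional coregulator), with 76096 bp and 22 H3K27ac peaks, and in Gse1, with 57244 bp and 27. Among H3K4me1 alone, the strongest peaks were nearest to Fcgr3 (fold 6.99) and Clnk (an adaptor protein of immune cells, fold 9.53). The widest lay in Cd47 (the signal that restrains phagocytosis, 13705 bp) and Lbx1 (a homeobox factor of muscle and spinal cord, 10391 bp). Rank by −log10 p and fold differed here: Hjurp had 1317 at fold 24.9 and Clk1 1208 at fold 61.4. Fcgr3 had 172 at fold 6.99 and Clnk 117 at fold 9.53. Whether reads at Hjurp, Mroh2a or Fcgr3 come from repeated sequence was not tested.

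Etv6 was assigned more H3K27ac peaks with H3K4me1 than any other coding gene. Etv6, an ETS repressor required in stem cells, had 113 H3K27ac peaks with H3K4me1 and 6 alone, and 34 of its 57 H3K4me1 peaks were acetylated. Arid1b (a chromatin remodelling subunit) had 99 H3K27ac peaks with H3K4me1, Foxp1 (a forkhead factor) 93, Cux1 (a homeobox tumour suppressor) 91, Gse1 (a protein of a transcriptional repressor complex) 88 and Msi2 (an RNA-binding protein of progenitors) 86. The H3K4me1 alone class was led by Foxp1 with 95 peaks, Angpt1 (the ligand of the receptor TEK) with 80, Pde4d (a cAMP phosphodiesterase) with 76, Msi2 with 75, Foxn3 with 71 and Nfia (an erythroid fate regulator) with 70. No count was scaled to the length of a gene or of the space around it. Msi2 also led H3K27ac alone with 26 peaks, ahead of Aff3 with 25, Snx29 with 23, Rora with 23, Trappc9 with 20 and Wwox with 20, and the strongest H3K27ac alone peak reached fold 3.19 at Rora (a nuclear receptor of innate lymphoid cells) and 14.9 at Trappc9.

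Over all coding genes, 60.4% had an assigned H3K27ac peak with H3K4me1, 14.9% had H3K4me1 and no H3K27ac, 18.6% had an H3K27ac alone peak, 1.13% had H3K27ac and no H3K4me1, and 22.1% had neither. A peak was assigned to the nearest coding gene within 100 kb of its body. Of 118235 assigned H3K4me1 peaks, 38.8% were acetylated, meaning that they overlapped H3K27ac. Among 3590 genes with 10 or more H3K4me1 peaks, the median gene had 35.4% acetylated (quartiles 25.0% and 45.9%). None of them had all and 72 had none, led by Shroom3 with 24 H3K4me1 peaks, Nfib with 20, Unc13c with 18 and Fcgr3, Pax7, Ltbp1, Zbtb7c and Pax2 with 17 each.

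**Figure D4:**
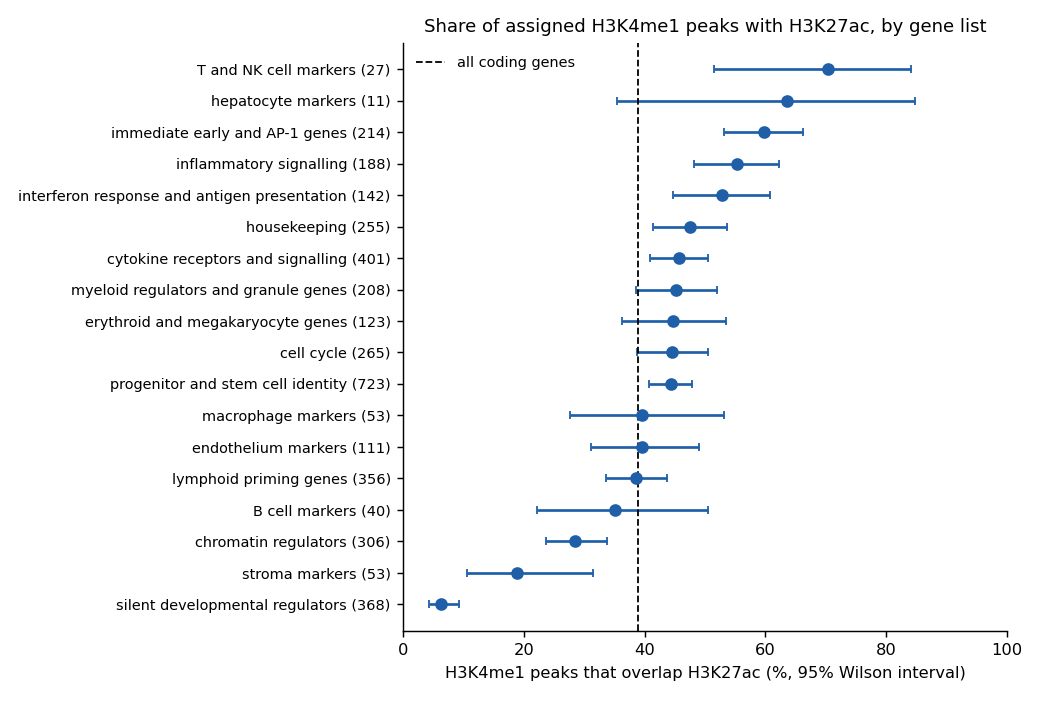
Percentage of assigned H3K4me1 peaks that overlap H3K27ac (x axis, 95% Wilson intervals) for the members of 18 gene lists, with the number of H3K4me1 peaks in brackets and the value over all coding genes as the dashed line. Immediate early genes reach 59.8%, progenitor genes 44.3%, chromatin regulators 28.4% and silent developmental regulators 6.25%, beside 38.8% over all coding genes.

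Most genes of progenitor identity carried both marks. Of 28 such genes, 26 had an H3K27ac peak with H3K4me1, beside 60.4% of all coding genes, and 320 of their 723 H3K4me1 peaks (44.3%, 40.7% to 47.9%) were acetylated, beside 38.8%. Runx1, the master factor of definitive blood formation, had 73 H3K27ac peaks with H3K4me1 and 6 alone. Kit, the receptor of stem cell factor, had 43 with H3K4me1 and 4 alone. Its strongest H3K27ac peak, at chr5:75727218-75733350 with fold 26.6 and 70496 bp beyond the gene, lay on an H3K4me1 peak of fold 8.28, and an H3K27ac peak of 6868 bp and fold 14.3 with H3K4me1 covered its start. The 4 H3K27ac alone peaks of Kit reached fold 3.55. Meis1 had 44 H3K27ac peaks with H3K4me1 and 1 alone, although its start in the sequences above had no H3K4me1 within 1 kb. Flt3, a receptor of early lymphoid and myeloid progenitors, had 15 of 21 H3K4me1 peaks acetylated (71.4%), with fold 36.7 over its start at chr5:147396892-147402221. Mllt3, a regulator of stem cell maintenance, had 8 of 59 acetylated (13.6%), and Zfx had 0 of 8.

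Genes of the later lineages held both marks in part. A peak with both marks was assigned to 21 of 25 myeloid genes, 15 of 20 erythroid and megakaryocyte genes and 15 of 20 lymphoid genes, beside 60.4% of all coding genes. Their H3K4me1 peaks were acetylated in 45.2% (38.6% to 52.0%), 44.7% (36.2% to 53.5%) and 38.5% (33.6% to 43.6%), and all of these intervals include the 38.8% over all genes. Cebpb and Cebpa, drivers of granulocyte fate, had 28 and 17 H3K27ac peaks with H3K4me1, and Mpo (myeloperoxidase) carried a 4376 bp H3K27ac peak at chr11:87791571-87795946 inside a 9796 bp H3K4me1 peak. Fcgr3, an Fc receptor of mature myeloid cells, had 17 H3K4me1 peaks at folds up to 10.2, none of them acetylated. It had 1 H3K27ac alone peak of fold 4.47, and whether reads at Fcgr3 come from repeated sequence was not tested. S100a8 (calprotectin) had 2 H3K4me1 peaks and no H3K27ac. Gata1 and Epor, the master regulator and the hormone receptor of red cells, had 1 H3K4me1 peak each and no H3K27ac. Klf1, their partner, had an H3K27ac peak of fold 5.60 with H3K4me1. Bcl11a and Ikzf1, regulators of early lymphoid fate, had 78 and 28 H3K27ac peaks with H3K4me1, whereas Bcl11b (T cell commitment) had 9 H3K4me1 peaks and Ikzf3 (late B cells) 5, none acetylated. Pax5, the B cell commitment factor, had an H3K27ac peak of fold 4.04 inside the gene, 37334 bp from its nearest listed start, and 4 H3K4me1 alone peaks, among them a weak peak of fold 2.42 over the start and a peak of fold 4.92 lying 4501 bp from it.

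Lists of rapidly induced genes had the largest acetylated shares among those with over 100 H3K4me1 peaks. Of the smaller lists, T and NK cell markers had 19 of 27 acetylated (70.4%, 51.5% to 84.1%). Hepatocyte markers had 7 of 11 (63.6%, 35.4% to 84.8%). B cell, macrophage and stroma markers stood at 35.0%, 39.6% and 18.9%. Immediate early and AP-1 genes had 128 of 214 H3K4me1 peaks acetylated (59.8%, 53.1% to 66.2%), inflammatory genes 104 of 188 (55.3%, 48.2% to 62.2%) and interferon and antigen presentation genes 75 of 142 (52.8%, 44.6% to 60.8%), beside 38.8% over all genes. All 20 immediate early genes and all 20 inflammatory genes had a peak with both marks, beside 60.4% of all coding genes. Fos and Jun, the partners of AP-1, had 19 and 11 H3K27ac peaks with H3K4me1, at folds up to 32.1 and 30.5. Ier5 had 21, Tnfaip3 (an inhibitor of NF-κB) 18, Irf2 40 and Irf1 18. Cytokine receptor and signalling genes had 183 of 401 acetylated (45.6%), with all 25 genes holding both marks beside the same 60.4%, among them Tgfbr2 with 34 peaks, Jak1 with 27 and Cxcr4 with 21. Cell cycle genes stood at 44.5% and housekeeping genes at 47.5%, also beside 38.8%. Within the cell cycle list Cdk6 had 39 H3K27ac peaks with H3K4me1, while Cdkn1c, an imprinted inhibitor of stem cell division, had 6 H3K4me1 peaks and none acetylated.

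Chromatin regulators held many H3K4me1 peaks of which few were acetylated. They had 87 of 306 H3K4me1 peaks acetylated (28.4%, 23.7% to 33.7%), below the 38.8% of all genes. Even so, 24 of 25 had an H3K27ac peak with H3K4me1, beside 60.4% of all coding genes. Of their 22 genes with listed starts, 4 had H3K27ac and no H3K4me1 within 1 kb of a start (Kmt2a, Kmt2c, Kdm1a and Ep300), beside 2.42% of all coding genes with listed starts. Crebbp, a writer of H3K27ac, had a single H3K27ac peak with H3K4me1 at fold 25.9 and 23 H3K4me1 peaks alone. Dnmt3a, the methyltransferase often mutated in blood cancers, had 18 H3K27ac peaks with H3K4me1, none within 1 kb of either end of the gene, although a listed start inside the gene had both marks.

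Developmental regulators of other tissues carried H3K4me1 with almost no H3K27ac. Of their 368 H3K4me1 peaks only 23 were acetylated (6.25%, 4.20% to 9.20%), and 29 of the 40 genes had H3K4me1 and no H3K27ac, beside 14.9% of all coding genes. H3K4me1 lay within 1 kb of a gene end in 39 of 40, beside 67.3% of all coding genes. H3K27ac lay there in 1 (Sox17), beside 55.0% of all coding genes. All 27 of them with listed starts fell into the class with H3K4me1 alone, beside 13.2% of all coding genes with listed starts. Pax7 (muscle) and Pax2 (kidney) had 17 H3K4me1 peaks each, Lhx2 15, Pax6 (eye) 12, Gata4 (heart) 11 and Irx3 8. The Irx3 start lay in an H3K4me1 peak of 8765 bp at chr8:91798696-91807460 with fold 5.83. Of the 11 genes with a peak that carried both marks, Tbx3, Hand1 and Tbx5 held the most such H3K27ac peaks, with 9, 6 and 4 at folds up to 9.01, 4.76 and 3.43.

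The second K27 set overlapped many of these H3K4me1 alone sites. Over all assigned peaks, that set's adult HPC list overlapped 0.285% of H3K4me1 peaks with H3K27ac and 2.19% of H3K4me1 alone, and its fetal HPC list 1.24% and 4.40%. At the developmental regulators it overlapped 122 of 345 H3K4me1 alone peaks in the adult (35.4%, 30.5% to 40.5%) and 197 in the fetus (57.1%, 51.8% to 62.2%). At progenitor genes it overlapped 1 of 403 H3K4me1 alone peaks in the adult and 2 of 403 in the fetus. All 40 developmental regulators had assigned peaks of the set at both ages, as did 5588 (adult) and 6862 (fetal) of all 21887 coding genes.

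The Hox clusters, whose genes pattern the body axis and are partly used in blood stem cells, showed the classes side by side. In the Hoxa cluster (chr6:52155367-52260880), 7 of 11 genes had H3K27ac within 1 kb of a gene end, beside 55.0% of all coding genes, and H3K27ac covered 25.5% and H3K4me1 33.7% of the bases. A single H3K27ac peak of 23217 bp and fold 17.5 covered chr6:52211746-52234962 around Hoxa9, a driver of progenitor self-renewal. In Hoxb (chr11:96194316-96368254), 4 of 10 genes had H3K27ac (Hoxb2, Hoxb3, Hoxb4 and Hoxb5), all 9 of its H3K27ac peaks had H3K4me1, and coverage was 6.28% and 28.7%. Hoxc (chr15:102921131-103036856) and Hoxd (chr2:74668225-74765142) had 0 H3K27ac peaks, with 23 and 26 H3K4me1 peaks covering 17.9% and 25.5%. The adult list of the second K27 set covered 9.29% of Hoxa, 13.3% of Hoxb, 43.9% of Hoxc and 35.4% of Hoxd. The Hox clusters were chosen after values were seen.

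H3K4me1 peaks with H3K27ac overlapped the H3K4me1 and H3K27ac lists of other cells more often than H3K4me1 alone, and the difference was largest among these 4 lists for fetal HPC H3K27ac. Of H3K4me1 peaks with H3K27ac in the adult, 59.1% (58.7% to 59.5%) overlapped fetal HPC H3K27ac, against 4.77% (4.63% to 4.92%) of H3K4me1 alone, a difference of 54.3 points (53.9 to 54.8). Within deciles of width it averaged 47.8 points, and each of 10 deciles had the same sign, from 36.5 to 59.9. H3K4me1 of adult HSC lay at 92.9% of sites with both marks and at 65.0% of H3K4me1 alone, a difference of 27.9 points (27.5 to 28.3) that averaged 11.0 within deciles of width. For fetal HPC H3K4me1 the 20.1 points (19.7 to 20.5) averaged only 3.56 within deciles, and 2 of 10 deciles went the other way. For fetal HSC H3K4me1 the 23.0 points averaged 4.68 within deciles of width. Of H3K4me1 alone sites, 45.5% were in all 3 other H3K4me1 lists and 13.7% in none, against 81.9% and 2.75% of those with H3K27ac. These last shares were not matched for width, which differed between the classes.

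**Figure D5:**
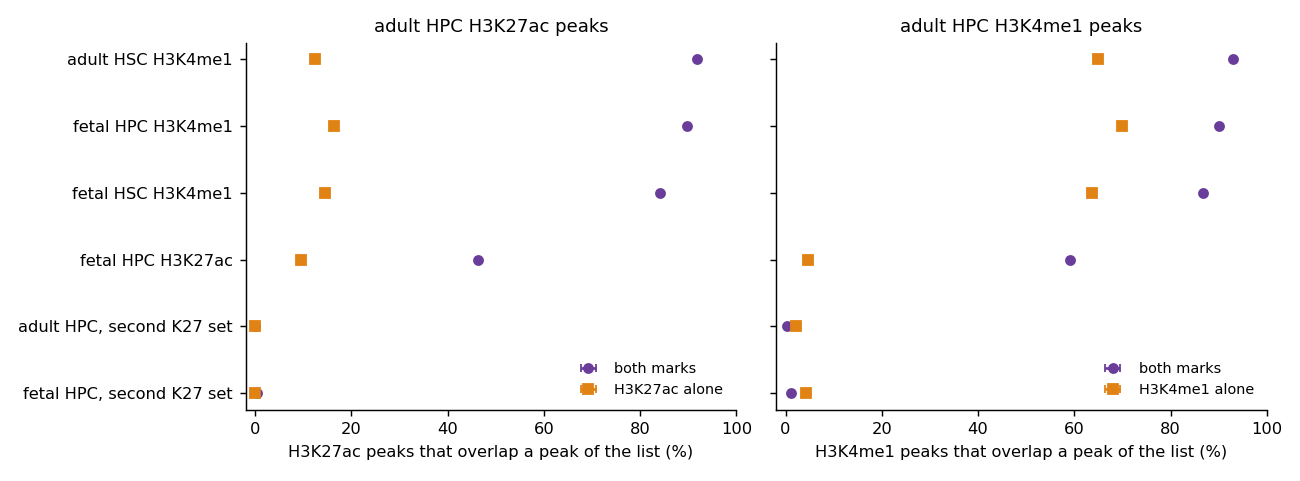
Percentage of adult HPC peaks that overlap a peak of another list (x axis), for H3K27ac peaks (left) and H3K4me1 peaks (right), with purple circles for peaks with both marks and orange squares for peaks with a mark alone (95% Wilson intervals, narrower than the symbols for most points). H3K4me1 peaks with H3K27ac reach 59.1% in fetal HPC H3K27ac and H3K4me1 alone 4.77%, while H3K27ac alone stays at 12.5% in adult HSC H3K4me1.

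Most H3K27ac alone sites had no H3K4me1 peak in the other cells either. Only 12.5% (11.8% to 13.2%) overlapped H3K4me1 of adult HSC, against 91.8% of H3K27ac peaks with H3K4me1, a difference of 79.3 points (78.6 to 80.1) that averaged 71.2 within deciles of width. It fell to 52.6 points with at least 50% of the narrower peak covered and to 35.3 with the summit rule. An overlap with any of the 3 other H3K4me1 lists was found at 2180 of 8276 (26.3%, 25.4% to 27.3%). Fetal HPC H3K27ac overlapped 9.50% of them, against 46.4% of those with H3K4me1. That difference of 36.9 points shrank to 3.91 on average within deciles of width, with 7 of 10 deciles of the same sign, and it turned to −10.7 points when the summit had to lie inside H3K4me1.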

How the data were processed

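ChIPmentation libraries of sorted mouse cells were pooled by the authors into 1 peak list for each of 8 groups of cell type, age and mark, from 27 libraries of which 3 were inputs. Per the submitters' processing notes, Novoalign and MACS2 were used with build mm10 (GRCm38). The sources used here give neither their versions nor the peak threshold or read depth. The deposited narrowPeak lists hold for each peak a fold (ratio) over background, −log10 p and −log10 q, as the authors' peak caller wrote them, and a summit. The pooled lists used here give no value per library, so counting intervals are the only error given.

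From these lists the overlaps, distances, classes of starts and motif counts were computed with Python 3.11.15, numpy 2.4.6, pandas 2.3.3 and scipy 1.17.1, and figures were drawn with matplotlib 3.10.9. The overlap, distance and interval steps were tested on simulated data. Genes, starts and sequences came from RefSeq tables (GRCm38.p6), with starts for 17492 of 21887 coding genes and none on chromosome 18. Of 370 names in 18 gene lists, 369 matched (Mx1 did not). The peak classes, gene lists and markers were chosen with earlier results of these data known. Named genes were, per class, the 6 with the most peaks (for both marks, H3K27ac peaks that carry H3K4me1) and the nearest genes of the 2 strongest and 2 widest peaks. Per list they were up to 4 with the most peaks of both marks and up to 2 with peaks of a single mark. Printed sequences are some of those with the strongest peak over the start in each class that carries a mark. For the class with neither mark no peak lay over the start, so Alb was taken from the list members without a rank by strength. The other genes named, the X chromosome comparison, the Hox clusters and the microRNAs were chosen after their values were seen. Alternatives were stricter or looser overlap, stronger peaks, equal list lengths, merged peaks and other distances. The libraries of the second K27 set carry conflicting mark labels and were used only under that name.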

Additional observations from a re-analysis of the deposited data

How the results depend on the processing

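No paired analysis was possible because each group is a single list pooled by the authors, and for the same reason no value without a replicate could be made. The settings below are, in this order, at least 50% of the narrower peak covered, own summit inside the other mark and a gap of 1 kb counted as both. Then come −log10 q of at least 5, the strongest 20000 peaks, equal list lengths and peaks under 200 bp left out. The last are autosomes only and peaks within 1 kb merged. The strongest 20000 peaks of a list were classed against the full other list. Equal list lengths cut only the H3K4me1 list. The share of H3K27ac peaks with H3K4me1 (86.9%) became 79.1%, 70.2%, 91.6%, 89.4%, 97.8%, 78.4%, 87.2%, 87.2% and 85.8%. That of H3K4me1 peaks with H3K27ac (38.1%) became 30.0%, 25.6%, 47.5%, 40.9%, 86.0%, 61.2% and 38.4% under the first 7 settings and 45.7% after merging. The nearness of H3K27ac alone to starts (−13.3 points) turned to 16.0, 40.4 and 14.8 under 50% coverage, summits and the strongest 20000, and the cause was not tested. It stood at −15.6 with a gap of 1 kb, −11.3 with the q limit, −9.37 at equal lengths, −15.8 on autosomes, −20.9 after merging, −15.2 within 2.5 kb and −12.3 for gene ends. For H3K4me1 the difference of 28.7 points became 10.6, 18.9, 24.1, 30.3, 13.1 and 23.9 under the first 6 settings, 27.8 within 2.5 kb and 24.8 for gene ends. The width ratio for H3K27ac (2.43) became 0.834 with summits and 1.54 within deciles of −log10 p, and that for H3K4me1 (2.85) became 1.42 for the strongest 20000, 1.57 at equal lengths and 1.15 within deciles. The difference in adult HSC H3K4me1 at H3K27ac peaks (79.3 points) became 52.6, 35.3, 80.1, 75.5, 71.4 and 60.5 under the first 6 settings, 82.2 after merging, 71.2 within deciles of width and 73.0 within deciles of −log10 p, a setting added after seeing the data. The difference in fetal HPC H3K27ac at H3K4me1 peaks (54.3 points) became 44.7, 51.9, 44.4, 57.5 and 58.4 under the first 5 settings, 57.8 after merging, and 47.8 and 45.3 within the deciles. The X chromosome difference, also added later, went from −50.6 to −24.6 points with a gap of 1 kb. Of 94 recomputed values for the 12 results that answer a comparison, 36 stayed within their limits, 54 moved and 4 reversed. Of 380 for 81 other results, 281 stayed within their limits, 96 moved and 3 reversed: fetal HPC H3K27ac at H3K27ac peaks with summits (−10.7 points), and the fetal list of the second K27 set at H3K27ac peaks with 50% coverage (−0.130) and with summits (−0.293).

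Depth is unknown, and a class alone means only that no peak of the other mark was called. The H3K4me1 list holds more peaks than the H3K27ac list, which by itself limits the share of H3K4me1 peaks that can carry H3K27ac. Listed starts cover only part of the genes, and peaks were tied to genes by distance, not by contact or expression.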

Other observations

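MicroRNA genes, chosen as a group after the peak lists had been seen, held the same classes on a small scale. Of 1005 hairpins in the RefSeq table, 20.1% had both marks within 1 kb, 16.9% H3K4me1 only and 2.09% H3K27ac only. MicroRNAs known from blood cells fell into all the classes, and those named were picked with their values known. Both marks lay within 1 kb of the hairpins of Mir142 (pan-hematopoietic, chr11:87756864-87756927), Mir223 (myeloid, chrX:96242817-96242926), Mir155 (immune activation, chr16:84714140-84714204) and Mir10a (inside the Hoxb cluster, chr11:96317165-96317274). Mir142 had 4 H3K27ac peaks with H3K4me1 within 10 kb and 0 H3K4me1 alone peaks, and Mir10a had 6 and 0. Mir126a and Mir130a had H3K4me1 only within 1 kb, Mir196b had H3K27ac only, and Mir144, Mir451a, Mir181a-1, Mir181b-1, Mir221 and Mir222 had neither mark there. The mature strands below carry the seed, bases 2 to 8, in capitals.
miR-142a-3p: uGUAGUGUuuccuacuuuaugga
miR-223-3p: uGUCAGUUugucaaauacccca
miR-155-5p: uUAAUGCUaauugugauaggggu
miR-10a-5p: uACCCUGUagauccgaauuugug

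Hairpins of microRNAs known from neurons and pancreas, Mir9-1 (chr3:88215598-88215686) and Mir375 (chr1:74900658-74900721), had H3K4me1 and no H3K27ac within 1 kb. So did Mir125b-1 (chr9:41581926-41582002) and Mir125a (chr17:17830812-17830879), whose mature strands share a seed and are known from stem cells. Mir125a had 2 H3K27ac peaks with H3K4me1 within 10 kb and Mir125b-1 had 0. Mir146 and Mir146b, which also share a seed and restrain inflammatory signalling, both had H3K27ac within 1 kb, but only Mir146b had H3K4me1 there. A hairpin can lie far from the start of its transcript, so these are positions of hairpins and not of promoters.
miR-9-5p: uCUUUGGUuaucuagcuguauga
miR-125b-5p: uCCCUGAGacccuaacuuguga
miR-125a-5p: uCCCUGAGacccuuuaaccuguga
miR-146a-5p: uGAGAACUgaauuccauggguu
miR-146b-5p: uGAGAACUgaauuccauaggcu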
